A study of Mus musculus with 6 samples.

Results

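The genes described here are the 3 D cyclins (Ccnd1, Ccnd2, Ccnd3), their kinase partners Cdk4 and Cdk6, and the transcription factor genes Myc and Mycn. They were chosen by symbol, as the features of the array whose annotation gives exactly 1 gene, and all 7 were found, each with 1 feature, among 22180 genes with such a feature. The RNA came from mouse skin cells sorted for CD34 and α6-integrin, the surface pair that marks hair follicle stem cells, and was hybridised to Affymetrix Mouse Gene 2.0 ST arrays. Of the 6 arrays, 3 came from K14-sPLA2-IIA transgenic mice (TG) and 3 from wild-type mice (WT), all at postnatal day 49. In TG mice a keratin 14 promoter, which is active in the basal epidermal layer and in the outer root sheath of the follicle, drives secreted phospholipase A2 group IIA. The labels give neither strain, sex nor the number of mice per array, so the p-values rest on the spread between samples that may be technical repeats.

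D cyclins are the part of the cell cycle engine that growth signals act on directly. They bind CDK4 or CDK6, and the complex phosphorylates the retinoblastoma protein, which then releases E2F factors to switch on genes of DNA synthesis. MYC and MYCN are related factors that pair with MAX on E-box DNA and raise genes of ribosome building and growth, among them Cdk4 and Ccnd2. In the hair follicle, bulge stem cells rest for most of the cycle, and the step through the D cyclin checkpoint accompanies their return to division.

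Pla2g2a, the gene of the transgenic enzyme, stood at 12.61, 12.57 and 12.39 on the TG arrays and at 6.77, 5.75 and 5.90 on the WT arrays, on the log2 scale of the deposited values. It was the 1 gene of 22180 with an adjusted p under 0.05 (adjusted p = 0.00255, limma). The arrays of 1 genotype were not alike: Cd34 read 11.57, 9.65 and 12.42 in TG and 9.78, 9.89 and 13.07 in WT, while Itga6, encoding α6-integrin, lay between 10.00 and 10.49 in TG and between 10.14 and 10.48 in WT. Over all genes principal component 1, with 64.6% of the variance, set both arrays numbered 3 (scores of 53.3 in TG and 50.2 in WT) apart from the other 4. Of those, TG array 1 stood at -2.78, and TG array 2, WT array 1 and WT array 2 between -34.3 and -32.7. The 12 bulge markers averaged 10.80, 9.81 and 10.94 on the TG arrays and 9.79, 9.88 and 11.23 on the WT arrays. The 10 suprabasal markers averaged 10.81, 11.82 and 10.03 in TG and 11.83, 11.94 and 10.52 in WT, and the 7 measured T-cell markers 7.93, 9.38 and 7.18 in TG and 8.63, 9.08 and 7.45 in WT. Values are given below in the order of array 1, 2 and 3, and results that turn on the arrays numbered 3 are given with and without them. Leaving those out still keeps TG array 1, whose Cd34 and bulge average lay above those of TG array 2 and WT arrays 1 and 2. In a bulk measurement fewer cells of a type and less RNA per cell cannot be told apart.

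No member passed the adjusted threshold. At an adjusted p under 0.05 the count was 0 of 7, where 0.00451% of all genes passed, and at an unadjusted p under 0.05 it was also 0 of 7, where 1.93% of all genes were higher and 0.843% lower in TG (limma). The TG minus WT differences of the members ran from -0.15 for Cdk6 to 0.45 for Mycn with a median of 0.16, and 6 of 7 were above 0, against 47.9% of all genes and a median of -0.0075 over all genes. The TG arrays all lay above the WT arrays in 1 member, Ccnd1, against 3.99% of genes, and in 0 members all below, against 3.21% of genes. The adjusted p was 0.99996 for each of the 7 in limma. Every one of the 95% intervals held 0, and they differed in width: differences above 0.73 are outside the interval of Cdk4, while Mycn could differ by as much as 1.62.

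**Figure D1:**
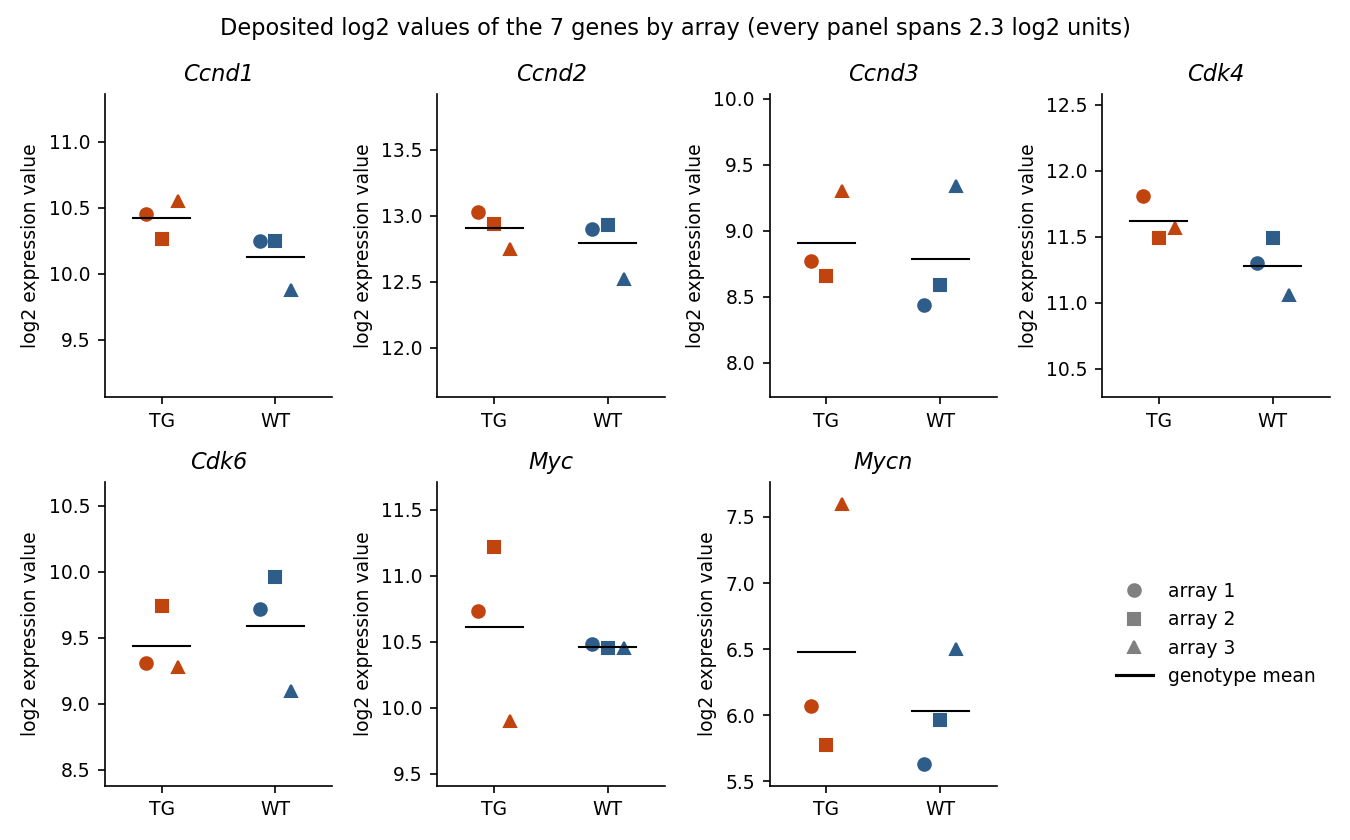
Deposited log2 expression values (vertical axis, log2 units, with the same span in every panel) of the 7 genes on the 3 TG arrays (left in each panel) and the 3 WT arrays (right), with symbols for the array number and a line for the genotype mean. The TG arrays of Ccnd1 all lie above its WT arrays, the 3 WT values of Myc fall within 0.03 of each other while the TG values run from 9.90 to 11.22, and Mycn is highest on array 3 of both genotypes.

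Ccnd1 encodes cyclin D1, which growth factor and Wnt signals induce in many epithelia. Its log2 value was 10.45, 10.26 and 10.55 on the TG arrays and 10.25, 10.25 and 9.88 on the WT arrays. The groups did not overlap, but the lowest TG array cleared the highest WT array by only 0.006. The difference was 0.29 ± 0.16 (SE), or 1.23-fold, with a 95% interval from -0.09 to 0.68 and an unadjusted p of 0.112 in limma. The two-sided exact permutation p was 0.1, below which 3 arrays against 3 cannot go. By array number TG exceeded WT by 0.20, 0.01 and 0.67, so most of the difference came from the arrays numbered 3. Without both of those it was 0.11.

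Ccnd2 encodes cyclin D2, a direct MYC target in several cell types. It read 13.03, 12.94 and 12.75 in TG and 12.90, 12.93 and 12.52 in WT. The groups overlapped, and array 3 was the lowest of its genotype in both. The difference was 0.12 ± 0.16 (SE), 1.09-fold, with an interval from -0.27 to 0.51. Without WT array 3 it was -0.01, so its sign rested on that array, and without both arrays numbered 3 it was 0.068.

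Ccnd3 encodes cyclin D3, the D cyclin commonly linked with differentiating cells. It read 8.77, 8.66 and 9.30 in TG and 8.44, 8.59 and 9.34 in WT. Here the array number set the values apart more than the genotype did: array 3 exceeded the mean of arrays 1 and 2 by 0.59 in TG and by 0.82 in WT, while the genotypes differed by 0.12 ± 0.29 (SE). The interval ran from -0.56 to 0.80. Leaving out TG array 3 turned the difference to -0.076, leaving out WT array 1 turned it to -0.056, and leaving out WT array 3 gave 0.39. Without both arrays numbered 3 it was 0.20.

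The D cyclins thus did not share 1 pattern over the arrays. On the arrays numbered 3, Ccnd3 was high in both genotypes and Ccnd2 low in both, while Ccnd1 was the highest of the 3 TG arrays and the lowest of the 3 WT arrays. Among all genes, 23.5% were highest on array 3 in both genotypes and 34.5% lowest on array 3 in both. Of the 7 members, 2 (Ccnd3 and Mycn) were highest there in both and 3 (Ccnd2, Cdk6 and Myc) lowest, although in WT arrays 2 and 3 of Myc had the same value to 2 decimals. In the bulge, suprabasal and T-cell marker averages given above, the arrays numbered 3 lay at the same end in both genotypes. TG array 1 lay close to them. Its bulge average was 10.80, against 10.94 on TG array 3 and 9.81 on TG array 2. Its suprabasal average was 10.81, against 10.52 on WT array 3 and 11.82 on TG array 2. These averages thus do not clearly set the arrays numbered 3 apart from TG array 1. The part of these averages in the values of these genes was not tested.

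Cdk4 encodes the kinase that all 3 D cyclins activate. It read 11.81, 11.49 and 11.57 in TG and 11.30, 11.49 and 11.06 in WT. All 3 TG arrays lay above the WT mean of 11.28, but TG array 2 was 0.005 below WT array 2, so the groups met. The difference of 0.34 ± 0.17 (SE), or 1.26-fold, had an interval from -0.06 to 0.73 and the smallest unadjusted p of the 7 genes (0.0811 in limma, and 0.2 in the exact permutation test). It stayed above 0 in each of the 14 other settings tried, between 0.23 and 0.44. Some of these settings leave the difference of a gene with 1 feature unchanged by construction, so they add no support for the sign. By array number TG minus WT was 0.52 and 0.50 for arrays 1 and 3.

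Since Cdk4 is a known MYC target, the promoters were searched for the E-box CACGTG, along with the AP-1 motif TGANTCA, the E2F motif TTTNGCG and the TCF and LEF motif CTTTGAT, on both strands. RefSeq promoter windows of GRCm38.p6, from 250 bases before to 50 after an annotated start, were held for Cdk4, Cdk6, Mycn and both starts of Ccnd3. The members Ccnd1, Ccnd2 and Myc had no entry. The Cdk4 and Cdk6 windows are shown because they differ in E-boxes, printed in capitals, and the Mycn window because it holds E2F matches, also in capitals.
Cdk4 promoter, chr10:127063285-127063584, plus strand: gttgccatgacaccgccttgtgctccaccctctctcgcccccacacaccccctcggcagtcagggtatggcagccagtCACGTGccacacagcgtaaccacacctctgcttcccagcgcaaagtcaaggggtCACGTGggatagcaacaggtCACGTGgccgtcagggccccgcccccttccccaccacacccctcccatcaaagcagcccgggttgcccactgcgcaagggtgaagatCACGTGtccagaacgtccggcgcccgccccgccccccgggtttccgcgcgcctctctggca
Cdk6 promoter, chr5:3343643-3343942, plus strand: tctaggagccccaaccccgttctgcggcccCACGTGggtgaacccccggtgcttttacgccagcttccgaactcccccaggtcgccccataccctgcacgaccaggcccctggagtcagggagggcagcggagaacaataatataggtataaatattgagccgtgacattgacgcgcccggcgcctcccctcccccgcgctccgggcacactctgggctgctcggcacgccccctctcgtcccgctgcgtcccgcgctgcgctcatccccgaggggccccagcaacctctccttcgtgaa
Mycn promoter, chr12:12941787-12942086, minus strand: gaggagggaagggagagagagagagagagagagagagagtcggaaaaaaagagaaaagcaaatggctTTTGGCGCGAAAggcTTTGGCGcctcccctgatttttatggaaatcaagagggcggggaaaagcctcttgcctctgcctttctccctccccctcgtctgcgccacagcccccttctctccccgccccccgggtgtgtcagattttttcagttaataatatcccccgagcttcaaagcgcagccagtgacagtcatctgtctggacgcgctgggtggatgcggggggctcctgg
The Cdk4 window held 4 E-boxes, which start at -172, -118, -98 and -11 from the annotated start. That was rare: 7.15% of 32851 promoter windows held at least 1 CACGTG and 8 windows (0.0244%) held 4 or more. The cutoff of 4 equals the count in the Cdk4 window itself, and the share is given with no test. Cdk6 held 1, at -220, and Mycn and both Ccnd3 windows held none. The Mycn window held 3 E2F matches, at -183, -178 and -168, of which the first 2 are on opposite strands and overlap, and 4.22% of windows held at least 1. Cdk4 also held 1 TCF and LEF match, as did 3.73% of windows, and no member window held an AP-1 match, against 7.81% of windows. A match is a run of letters and was not measured as a binding site.

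Cdk6 encodes the second kinase partner and was the 1 member with a difference below 0. It read 9.31, 9.74 and 9.28 in TG and 9.72, 9.96 and 9.10 in WT. The groups overlapped, with WT array 3 the lowest of all 6. The difference was -0.15 ± 0.25 (SE), 0.901-fold, with an interval from -0.76 to 0.46. It was -0.40 without WT array 3 and turned to 0.033 without WT array 2, and without both arrays numbered 3 it was -0.32. With array weights, which count arrays that fit the model poorly for less, Cdk4 stood at 0.36 (unadjusted p = 0.0287, adjusted p = 0.32163) and Cdk6 at -0.42 (unadjusted p = 0.0439, adjusted p = 0.34531) in limma, so neither passed. Unadjusted p-values under 0.05 were common in that fit. They were found in 3119 of 22180 genes, against 615 in the main fit.

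**Figure D2:**
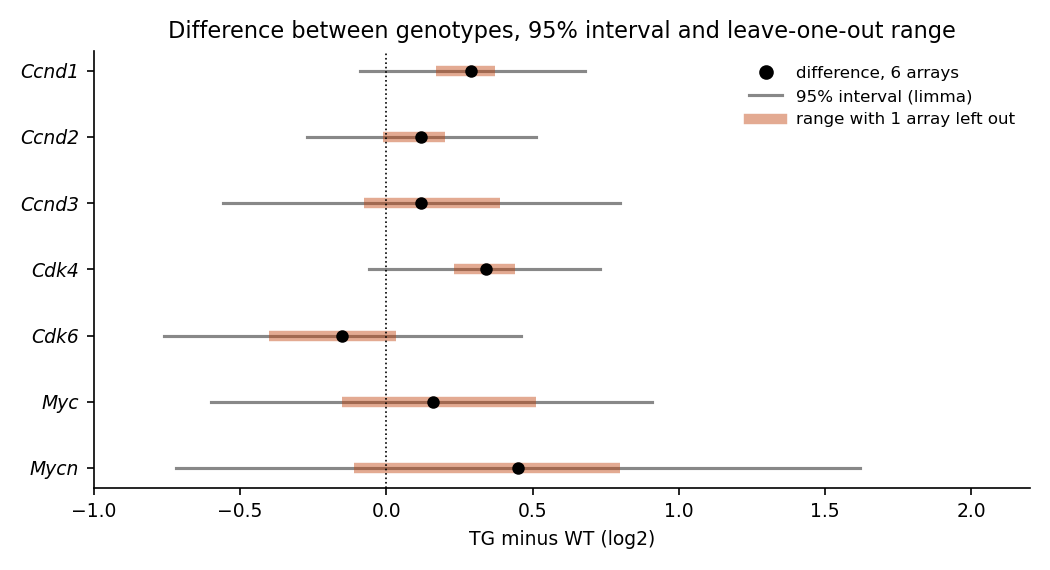
TG minus WT difference on the log2 scale (horizontal axis) for each of the 7 genes, with the 95% interval of the limma fit as a grey line and the range obtained by leaving out 1 array as a wide bar. All 7 intervals cross 0, and the leave-one-out bars stay above 0 for Ccnd1 (0.17 to 0.37) and Cdk4 (0.23 to 0.44) and cross it for the other 5.

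Myc encodes the more widely expressed factor of the pair, and its RNA is short-lived and responds quickly to stimuli. It read 10.73, 11.22 and 9.90 on the TG arrays and 10.48, 10.45 and 10.45 on the WT arrays. The WT arrays were nearly identical (SD 0.015, n = 3), while the TG arrays spread over 1.32 (SD 0.67, n = 3), with 2 above and 1 below every WT array. Chosen after these values were seen and given with no test, the ratio of the SDs was 44.7, and 9 of 22180 genes (0.0406%) had one at least as large. Of the 7 members, 2 (Myc and Mycn) had the larger SD in TG, against 47.1% of all genes, and 0.514% of genes had a WT SD no larger than that of Myc. The difference of the means, 0.16 ± 0.32 (SE), had an interval from -0.60 to 0.91. Its sign followed single TG arrays: it was 0.51 without TG array 3 (unadjusted p = 0.0321, adjusted p = 0.99928 in limma), 0.51 without both arrays numbered 3, and -0.15 without TG array 2. Without TG array 3, 651 of 22180 genes had an unadjusted p under 0.05 in limma.

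Mycn encodes the family member best known from embryonic and neural progenitors. It read 6.07, 5.77 and 7.60 in TG and 5.63, 5.96 and 6.50 in WT. Array 3 was the highest of its genotype in both, by 1.68 over the mean of arrays 1 and 2 in TG and by 0.70 in WT. The genotype difference was 0.45 ± 0.49 (SE), 1.36-fold, with an interval from -0.72 to 1.62. It was -0.11 without TG array 3 and 0.12 without both arrays numbered 3. The TG array with the highest Mycn was thus the one with the lowest Myc, and the WT arrays, where Myc hardly moved, still spread over 0.87 in Mycn.

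The genes whose profile over the 6 arrays was most like that of Myc, by the root mean square difference between profiles centred on their own means, were Zfp36l2 (0.12), Gpx2 (0.13) and Cracr2b (0.13). Zfp36l2 encodes an RNA-binding protein that shortens the life of AU-rich messages, Gpx2 a glutathione peroxidase and Cracr2b a regulator of calcium entry. Zfp36l2 read 8.62, 9.21 and 7.79 in TG and 8.39, 8.58 and 8.67 in WT. For Mycn they were Flot2 (0.12), Dnajc27 (0.13) and Pygb (0.15), which encode flotillin 2, a small GTPase with a J domain and brain-type glycogen phosphorylase. Flot2 read 8.06, 7.54 and 9.36 in TG and 7.49, 7.57 and 8.33 in WT. With 6 arrays and 17302 genes to choose from, close profiles are a description only, and the range of the other 5 members was too small (under 1 log2 unit) for such a search.

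**Figure D3:**
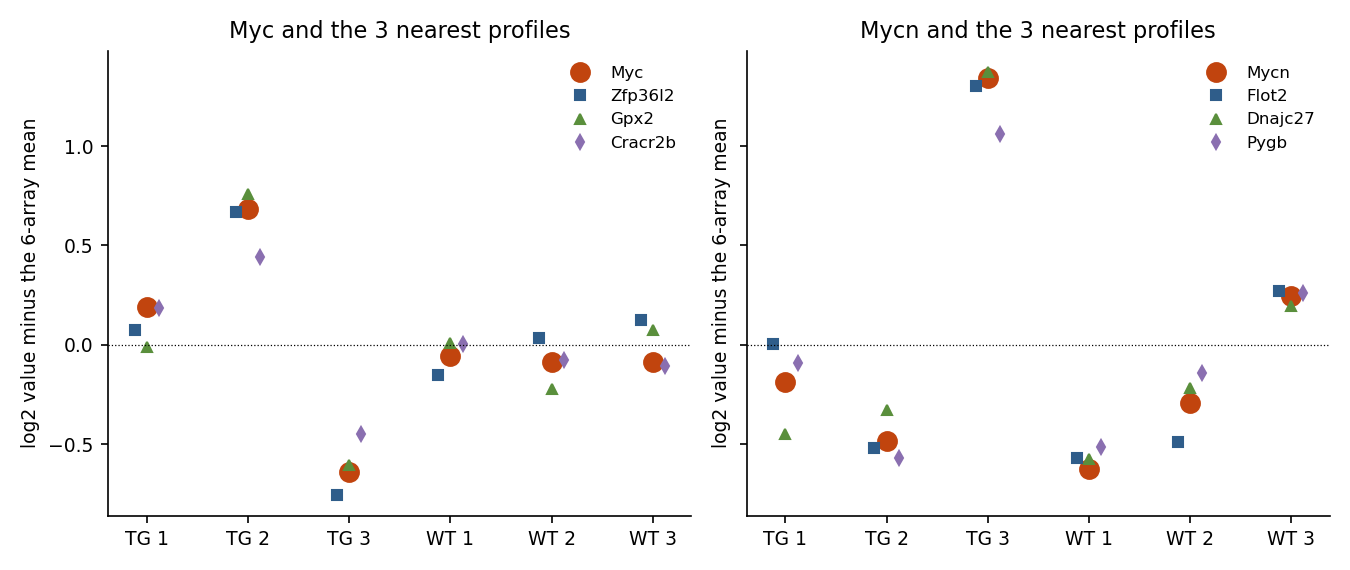
Log2 values of Myc (left panel) and Mycn (right panel) on each array, as the difference from the gene's own mean over the 6 arrays (vertical axis), with the 3 genes of most similar profile in each panel. Myc and its neighbours are highest on TG array 2 and lowest on TG array 3, whereas Mycn and its neighbours are highest on TG array 3.

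Downstream of the D cyclin kinases lie E2F and cyclin E. In a list of 13 measured genes of the cyclin E, CDK2 and E2F module, 0 passed the adjusted threshold in limma. At an unadjusted p under 0.05 there was 1 higher (7.69%) and 0 lower in TG, against 1.93% and 0.843% of all genes. The median difference was 0.285 and 11 of 13 were above 0, against 47.9% of all genes. Without both arrays numbered 3 the median was 0.149. E2f6, a repressor of the family, differed by 0.61 ± 0.22 (SE), and the E2F partner gene Tfdp2 by 0.35 ± 0.15. Neither gene overlapped between the genotypes, and these 2 were 15.4% of the list, against 3.99% of all genes higher without overlap. Cdc25a, encoding a phosphatase that activates CDK2, and E2f8, an atypical repressor, differed by 0.47 ± 0.21 and 0.78 ± 0.37 with overlapping groups. Without both arrays numbered 3, E2f6 stood at 0.28 and E2f8 at 0.15, while Tfdp2 stood at 0.33 and Cdc25a at 0.43. E2f6 ran from 5.18 to 6.44 over the arrays, below the median level of all genes (6.55). Among the 12 genes of the list above that level, 0 had an unadjusted p under 0.05 in limma.

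Genes of DNA synthesis that E2F factors drive were all above 0 in TG, at 18 of 18 measured, against 47.9% of all genes. Their median was 0.471. None passed the adjusted threshold in limma. At an unadjusted p under 0.05 there were 3 higher (16.7%) and 0 lower, against 1.93% and 0.843% of all genes. The groups did not overlap in 7 of 18 (38.9%), against 3.99% of all genes. Mcm7 and Mcm4, encoding parts of the replicative helicase, read 9.42, 8.94 and 9.30 and 9.70, 9.49 and 10.27 in TG, against 8.66, 8.90 and 8.47 and 9.14, 9.47 and 9.23 in WT. These 2 genes differed by 0.54 ± 0.18 and 0.54 ± 0.22 (SE). The helicase activator gene Cdc45 differed by 0.69 ± 0.24 and Mcm6 by 0.58 ± 0.25, and without both arrays numbered 3 the differences were 0.40 for Mcm7, 0.29 for Mcm4, 0.33 for Cdc45 and 0.21 for Mcm6. The gap was widest on the arrays numbered 3: without both of them the median was 0.223, 15 of 18 were above 0 and 0 had an unadjusted p under 0.05. The count at that p was also 0 without TG array 1, without TG array 3 or without WT array 3, and 9 without TG array 2. With the replicate number as a block it was 6. Over all 22180 genes, 551 were higher at that p without TG array 2 and 1018 with the block, against 428 in the main fit. Cell cycle genes were already known to lie above 0 in these data when this list was drawn up, so it is no independent evidence of a direction.

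**Figure D4:**
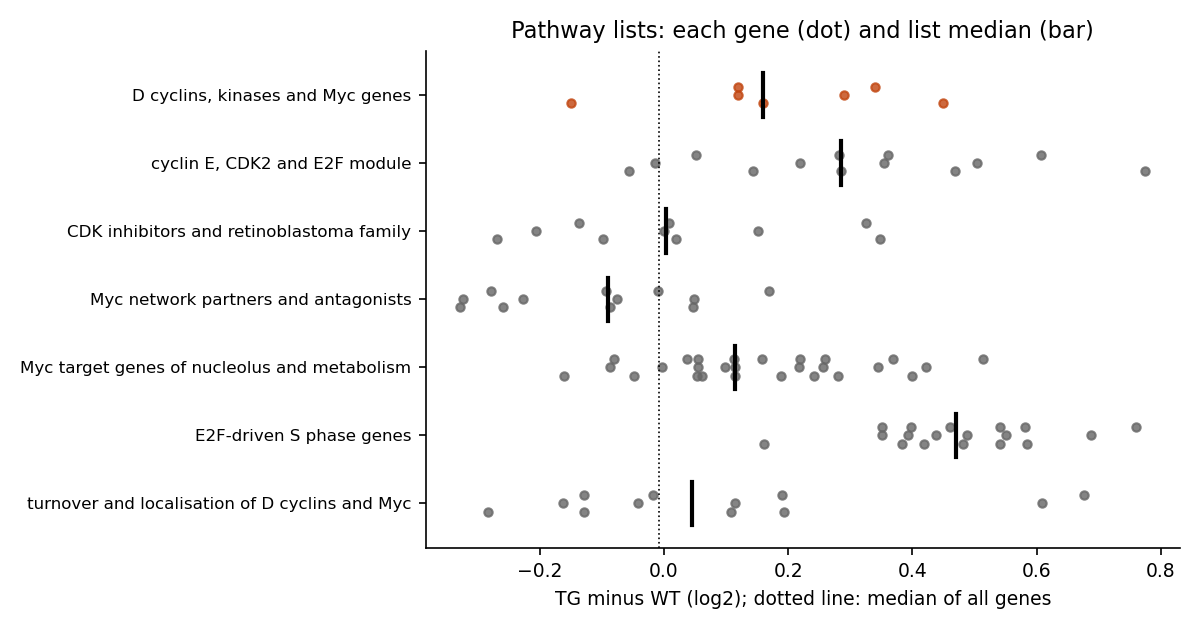
TG minus WT difference on the log2 scale (horizontal axis) of each measured gene (dots) in the 7-gene set and in 6 pathway lists, with the list median as a bar and the median of all genes, -0.0075, as a dotted line. The list of S phase genes lies wholly above 0 with a median of 0.471, while the CDK inhibitor and retinoblastoma list is spread around 0 with a median of 0.004.

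The CDK inhibitor and retinoblastoma genes showed no common direction. Of the 10 genes in this list, 5 were above 0 and 5 below, against 47.9% of all genes above 0. The median was 0.004, and 0 had an adjusted or an unadjusted p under 0.05 in limma. Cdkn1b, encoding the inhibitor p27, differed by 0.32 ± 0.27 (SE), and the INK4 gene Cdkn2c, which binds CDK4 and CDK6, by 0.35 ± 0.31. Cdkn1c differed by -0.21 ± 0.19 and the retinoblastoma relative Rbl1 by 0.15 ± 0.16. Without both arrays numbered 3, Cdkn2c stood at -0.12, Cdkn1b at 0.62, Cdkn1c at -0.36 and Rbl1 at 0.01.

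Of the partners and antagonists of Myc, 9 of 12 were below 0 and 3 above, against 47.9% of all genes above 0. The median was -0.090, and 0 had an adjusted or an unadjusted p under 0.05 in limma. Mlxip, a glucose-responsive relative in the network, read 9.49, 9.41 and 9.55 in TG and 9.70, 9.65 and 9.78 in WT. Its groups did not overlap, at a difference of -0.23 ± 0.12 (SE), and it was the 1 gene of the list with this pattern. Of all genes, 3.21% were lower in TG without overlap. The antagonist genes Mga, Mxi1 and Mxd4 differed by -0.32 ± 0.21, -0.33 ± 0.27 and -0.26 ± 0.24. The median of the list turned to 0.033 without TG array 3, and Mxi1 turned to 0.21 when its features were averaged. Without both arrays numbered 3, Mxd4 stood at -0.12 and Mxi1 at -0.20.

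Myc targets of the nucleolus and of metabolism had a median difference of 0.114, with 22 of 27 above 0, against 47.9% of all genes. In limma 0 passed the adjusted threshold. At an unadjusted p under 0.05, 2 were higher (7.41%) and 0 lower, against 1.93% and 0.843% of all genes. Nop58, encoding a small nucleolar ribonucleoprotein component, read 9.70, 9.64 and 9.91 in TG and 9.36, 9.36 and 9.33 in WT. The groups were separate, with a difference of 0.40 ± 0.13 (SE). Gnl3, encoding nucleostemin, differed by 0.51 ± 0.20 and the spermidine synthase gene Srm by 0.37 ± 0.18, both without overlap. Ncl, encoding nucleolin, differed by 0.24 ± 0.14 with overlap. The list held 3 genes higher without overlap (11.1%), against 3.99% of all genes. Srm stood at 0.18 without both arrays numbered 3. On TG array 3, where Myc was 9.90 and below every WT array, Nop58 had its highest value of the 6 arrays. Among the TG arrays the other named targets differed from Nop58: Gnl3 (9.51) and Ncl (11.56) had their lowest TG value there, and Srm (10.63) lay between its other TG arrays. Gnl3 and Srm still lay above every WT array there, while Ncl lay just below WT array 1 (11.57). The median of the list was 0.050 without both arrays numbered 3, 0.255 without WT array 2 and 0.207 without TG array 3.

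Among 12 genes that act on the turnover or activity of D cyclins and Myc, 6 were above 0 and 6 below. Of all genes, 47.9% were above 0. The list median was 0.046 and ran from -0.11 to 0.158 when 1 array was left out. In limma 0 passed the adjusted threshold. At an unadjusted p under 0.05, 2 were higher (16.7%) and 0 lower, against 1.93% and 0.843% of all genes. Without overlap, 1 was higher (8.33%), against 3.99% of all genes. Skp2 encodes the F-box protein that marks p27 for destruction and also binds MYC. It read 8.91, 9.01 and 8.65 on the TG arrays and 8.22, 8.27 and 8.25 on the WT arrays. The groups were clearly separate, at a difference of 0.61 ± 0.14 (SE) with an interval from 0.28 to 0.94, an unadjusted p of 0.00366 and an adjusted p of 0.99996 in limma. In the 14 other settings the difference of Skp2 stayed between 0.53 and 0.72, and its adjusted p was 0.195 or higher in limma. Some of those settings leave a difference unchanged by construction. Aurka, encoding the mitotic kinase that shields MYCN from destruction, differed by 0.68 ± 0.27 with overlapping groups, Ambra1, encoding the ubiquitin ligase receptor for D cyclins, by -0.28 ± 0.21, and Usp28, encoding a deubiquitinase of MYC, by 0.19 ± 0.18. Without both arrays numbered 3, Aurka stood at 0.28 and Ambra1 at -0.07.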

How the data were processed

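The authors deposited 1 log2 expression value per array and feature for 41345 features and 6 arrays. The log scale was read from the values. For the log base, the summarisation and the scaling, the sources used here give nothing, and the folds assume base 2. Per the submitters' processing notes, Expression Console 1.4.1 and the Transcriptome Analysis Console of Affymetrix were used. The platform annotation gave 1 symbol for 23521 features, several for 1814 and none for 16010. The brightest feature per gene was kept (22180 genes), without a filter or rescaling. Array medians ran from 5.90 to 5.99, and no detection value was used.

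TG was compared with WT with lmFit and eBayes of limma 3.58.1 under R 4.3.3 (two-sided, genotype alone in the model). P-values were adjusted over all genes by the Benjamini-Hochberg method, and 0.05 was the threshold. The fit was tested on simulated data with independent arrays and known differences in 200 genes. Those differences were all larger than any of the members, so the simulation does not bear on differences of their size. Deviations from the genotype means correlated at 0.20, 0.67 and 0.74 between arrays numbered 1, 2 and 3. Between arrays of different number, TG 2 with WT 1 gave 0.50 and TG 1 with WT 2 gave 0.17. The rest ran from -0.72 to -0.23. The arrays numbered 1 were thus not singled out as a pair. A fit blocked on the replicate number was also run. The pairing comes from this check alone. That fit moved the count of genes at an unadjusted p under 0.05 to 1874, against 615 unblocked.

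The members and the 6 pathway and 7 marker lists were chosen with earlier results of these data known. All members were named, with up to 4 genes of smallest unadjusted p per list and, for members spanning at least 1 log2 unit, the 3 nearest profiles, leaving out predicted genes, clone names and small RNAs. Listed genes without a feature of 1 symbol were not analysed here. Per list, counts and medians are given with no set test. Alternatives were other normalization, feature rules, a level filter, moderation, array weights, the block and leaving out arrays. Promoters are from RefSeq, GRCm38.p6.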

Additional observations from a re-analysis of the deposited data

How the results depend on the processing

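Of 97 recomputed member differences, 91 kept their sign and 0 passed the adjusted threshold in limma. Each member has 1 feature, so the other feature rules returned the main value. The level filter, the other moderation and the block also cannot move a difference. The 91 therefore counts values that could not change sign. With 1 array left out the differences ran from 0.17 to 0.37 for Ccnd1, from -0.01 to 0.20 for Ccnd2, from -0.076 to 0.39 for Ccnd3, from 0.23 to 0.44 for Cdk4, from -0.40 to 0.033 for Cdk6, from -0.15 to 0.51 for Myc and from -0.11 to 0.80 for Mycn. The sign changes, all with 1 array left out, were those of Ccnd2 without WT array 3, Ccnd3 without TG array 3 (-0.076) or WT array 1 (-0.056), Cdk6 without WT array 2, Myc without TG array 2 and Mycn without TG array 3. Mycn was not above the median level, so that filter gave it no value. The cause was not tested. The count of genes past the adjusted threshold was 1, with 0 to 1 when 1 array was left out: it was 0 without TG array 1 and 0 without both arrays numbered 3. At an unadjusted p under 0.05 the 615 genes became 1874 with the replicate block, 3119 with array weights, 1348 over all 41345 features, 373 of the genes above the median level, 287 without TG array 1, 1062 without WT array 3 and 1313 without both arrays numbered 3. Pairing by replicate number cannot move a difference, as each number has 1 TG and 1 WT array. It changed no member's call, the lowest adjusted p in that limma fit being 0.6009 for Cdk4. Of 84 recomputed list medians, 9 moved by more than 1 SD between arrays, most of them in the list of turnover genes. The 84 include medians that could not move, such as those with the other moderation or the block. The number of arrays limits the precision.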

Other observations

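Cell type markers were compared in 7 lists, of which 2 are the bulge and suprabasal lists. None of the genes passed the adjusted threshold in limma, and 1 had an unadjusted p under 0.05, the macrophage gene Adgre1, which is named after its value was seen. Of all genes, 1.93% were higher and 0.843% lower at that p. Members above 0 were 10 of 12 in the bulge list, 1 of 10 in the suprabasal list and 0 of 7 in the T-cell list. There were 7 of 8 in the fibroblast list and 5 of 7 in the endothelial list. The macrophage and Langerhans list had 2 of 8 and the melanocyte list 3 of 8, where 47.9% of all genes were above 0. The fibroblast averages ran from 6.51 to 6.63 on the TG arrays and from 6.20 to 6.33 on the WT arrays. The endothelial list averaged 5.69 to 6.07 in TG and 5.53 to 5.95 in WT, and the melanocyte list 6.90 to 7.34 in TG and 6.68 to 7.52 in WT. The macrophage and Langerhans list averaged 7.03 to 7.77 in TG and 7.34 to 7.64 in WT. Their part in the values of the D cyclin, kinase and Myc genes was not tested.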
